A study of Rattus norvegicus with 24 samples.

Results

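The cardiac myosin heavy and light chains were examined through every probe set that the platform annotation assigned to Myh6, Myh7, Myl1, Myl2, Myl3, Myl4 or Myl7. That gave 15 probe sets for 7 genes, out of 8740 probe sets other than controls and 4736 genes named by a single symbol. Probe sets of a gene were kept apart because they can disagree. Probe set X15939_r_at was annotated to both Myh7 and Myh6 and is described as shared. The 15 probe sets all passed the filter on dim values and were tested.

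The arrays measured total RNA from the left ventricle of the Dahl salt-sensitive (DS) rat, a strain whose blood pressure rises on dietary salt. Rats were obtained when 5 weeks old and treated from an age of 6 weeks. Exercised rats ran on a treadmill daily for 6 weeks, high salt rats were fed 6% NaCl, and controls were age-matched sedentary rats on normal chow. The running was given as 90 minutes a day at 16 m/min and an incline of 5 degrees, with a ramp of 3 weeks. The same 6 weeks of running are given for the exercise arrays titled 3 weeks. By the array titles, all 3 treatments were sampled at 3 weeks and at 6 weeks, and high salt and control also at 15 weeks; each group had 3 columns, and the labels leave unstated from when the weeks were counted. All groups shared the strain. The labels do not say that arrays came from separate animals, so a p-value here speaks of the spread between arrays alone, and the small number of arrays limits the precision.

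Myosin drives cardiac contraction: a pair of heavy chains forms the motor, and each heavy chain carries 1 regulatory and 1 essential light chain. In rodent hearts Myh6 encodes the fast alpha heavy chain of the adult and Myh7 the slower beta heavy chain, which dominates before birth and is known to return under pressure load. Ventricular muscle uses Myl2 as its regulatory and Myl3 as its essential light chain, atrial muscle uses Myl7 and Myl4, and Myl1 encodes the essential light chains of fast skeletal muscle.

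The deposited table held 24 columns but 22 distinct arrays, because arrays 2 and 3 of control and of exercise at 3 weeks had identical values. These 2 arrays were left out of comparisons with either group, and entered once each in a combined non-salt group of 4 arrays at 3 weeks. The 3' to 5' signal ratio of GAPDH, a sign of RNA integrity, was 1.58, 2.48 and 3.99 in the 6-week controls, between 1.09 and 1.58 in the controls of 15 weeks, and between 0.99 and 1.18 on the remaining 16 arrays. Of 11 ventricular cardiomyocyte markers, 8 were on the array and all 8 passed the filter, and Tnni3, Tnnt2 and Actc1 lay at or above percentile 99.8 of mean intensity. In whole ventricle, fewer cells of a type and less RNA per cell cannot be told apart.

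Myh6 and Myh7 are neighbours on rat chromosome 15, and the windows at their annotated starts are shown because the results turn on this pair. RefSeq windows of the GRCr8 build, from 250 bases before to 50 bases after the start, were matched for 6 of the 7 genes, all but Myl2. The Myh6 window is chr15:32411648-32411947 and the Myh7 window is chr15:32438145-32438444, both on the minus strand and written 5′ to 3′; capitals mark a match to 1 of 6 motifs searched on both strands.
Myh6: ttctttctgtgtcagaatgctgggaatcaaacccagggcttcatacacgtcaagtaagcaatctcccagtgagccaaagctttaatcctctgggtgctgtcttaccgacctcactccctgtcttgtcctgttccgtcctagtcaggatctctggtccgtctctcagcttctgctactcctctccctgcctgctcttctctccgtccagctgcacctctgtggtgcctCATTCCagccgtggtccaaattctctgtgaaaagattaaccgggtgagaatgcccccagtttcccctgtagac
Myh7: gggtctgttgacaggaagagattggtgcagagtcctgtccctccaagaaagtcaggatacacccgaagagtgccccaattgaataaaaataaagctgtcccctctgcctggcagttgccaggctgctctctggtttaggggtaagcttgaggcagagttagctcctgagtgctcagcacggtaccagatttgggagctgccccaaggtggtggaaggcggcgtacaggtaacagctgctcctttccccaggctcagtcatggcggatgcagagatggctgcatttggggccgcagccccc
The Myh6 window held 1 CATTCC, the core of the muscle MCAT element, at offset -23 from the annotated start. The Myh7 window held no match, and an atg lies among its bases soon after the annotated start. Whether either window holds the promoter in use was not checked, so the lack of a match does not describe the Myh7 promoter. CATTCC occurred in 14.2% of 33469 RefSeq windows of this length, TATAAA in 14.2%, AGGTCA in 16.2%, TGATAA in 9.03%, the CArG box in 1.64% and the MEF2 box in 0.565%. Among the other light chain windows, that of Myl3 held a CArG box and 2 CATTCC matches, 1 of the 2 Myl1 windows held a MEF2 box and an AGGTCA, and the other Myl1 window and that of Myl4 held TATAAA. None of the searched motifs overlapped another in these windows. A match here describes letters only.

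Among the heavy chains, the Myh7 probe set X15939_i_at was higher in high salt than in control ventricles at 6 weeks, and higher at 15 weeks than at 3 weeks of high salt. Its intensity was 17059, 12855 and 8133 in the 6-week controls, 9393, 13720 and 20026 after exercise, and 26115, 27264 and 20438 on high salt. All 3 high salt arrays lay above every control and every exercise array of that week. The rise over control was 1.01 ± 0.29 on the log2(intensity + 40) scale (SE, n = 3 each), a 2.01-fold difference with an adjusted p of 0.0227 in limma. Leaving out control array 3, the one with the GAPDH ratio of 3.99, gave 0.72 with an adjusted p of 0.14, and leaving out control array 2 or high salt array 1 or 2 also ended the call, with adjusted p-values of 0.0552, 0.0533 and 0.0801. With the GAPDH ratio in the model the difference was 0.36 (adjusted p = 0.858). Group and ratio cannot be told apart in that fit, since the high salt arrays of 6 weeks had ratios of 1.04 to 1.17. Against the controls of 3 and 15 weeks together, 1 array of 3 weeks and 3 of 15 weeks, the difference was 0.96 (adjusted p = 0.163).

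Exercise did not pass the test for this Myh7 probe set. Its mean was 14380 ± 5347 after exercise (SD, n = 3) and 12682 ± 4466 in the controls, a difference of 0.18 with a 95% interval from -0.42 to 0.77. High salt against exercise at 6 weeks, a comparison that does not use the 6-week controls, gave 0.83 ± 0.29 (adjusted p = 0.531, interval 0.23 to 1.43). In that comparison 0 of the 15 myosin probe sets were called by limma and 6 had an unadjusted p under 0.05, beside 0.0153% of all 6555 tested probe sets called and 7.05% at an unadjusted p under 0.05.

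At 15 weeks X15939_i_at read 15185, 14501 and 20290 in the controls and 22952, 36088 and 21925 on high salt. The groups did not overlap, but the difference of 0.67 ± 0.29 was not called (adjusted p = 0.183, interval 0.08 to 1.27). At 3 weeks the 4 non-salt arrays read 5533, 9895, 9890 and 7717 and the high salt arrays 14842, 11897 and 9283. These groups overlapped, and the difference was 0.55 ± 0.27 (adjusted p = 0.627).

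Within high salt, X15939_i_at was higher at 15 than at 3 weeks by 1.15 ± 0.29, or 2.23-fold, with an adjusted p of 0.0191. The call was lost without high salt array 2 of 15 weeks (0.93, adjusted p = 0.112) and without array 2 or 3 of 3 weeks (adjusted p = 0.0638 and 0.118), and with the GAPDH covariate it was 1.22 (adjusted p = 0.0071). The beta-actin 3' to 5' ratio was 1.04 to 1.06 on the high salt arrays of 3 weeks and 1.32 to 1.68 on those of 15 weeks, without overlap, and its part in this and the other 15 against 3 week values was not tested. The controls of 15 weeks were higher than the non-salt arrays of 3 weeks by a like size, 1.03 ± 0.27, which was not called (adjusted p = 0.254). From lowest to highest, the means ran from non-salt at 3 weeks (8259) over high salt at 3 weeks (12007), control at 6 weeks, exercise at 6 weeks and control at 15 weeks (16659) to high salt at 6 weeks (24606) and 15 weeks (26988). Each neighbouring pair in this order overlapped in its arrays except control at 15 weeks and high salt at 6 weeks, where the highest control read 20290 and the lowest high salt array 20438.

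The second Myh7 probe set, X15939_f_at, passed the test in no comparison. It read 40140, 28174 and 28342 in the 6-week controls, 25086, 29513 and 41432 after exercise and 40945, 51800 and 44089 on high salt. The high salt arrays lay above all 3 controls but overlapped the exercise arrays. The difference from control was 0.51 ± 0.23 (adjusted p = 0.132) at 6 weeks and 0.01 ± 0.23 (interval -0.46 to 0.48) at 15 weeks, where the controls read 37341 to 46313 and high salt 34089 to 54834. The shared probe set X15939_r_at read 15087 to 27429 in the 6-week controls and 31140 to 33943 on high salt, without overlap, and its difference of 0.64 ± 0.24 was not called (adjusted p = 0.0722). The f and r endings mark sets that match a gene family or were built under relaxed rules, and i marks a set with fewer probes, so how far each reads Myh7 apart from Myh6 cannot be told apart here.

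**Figure D1:**
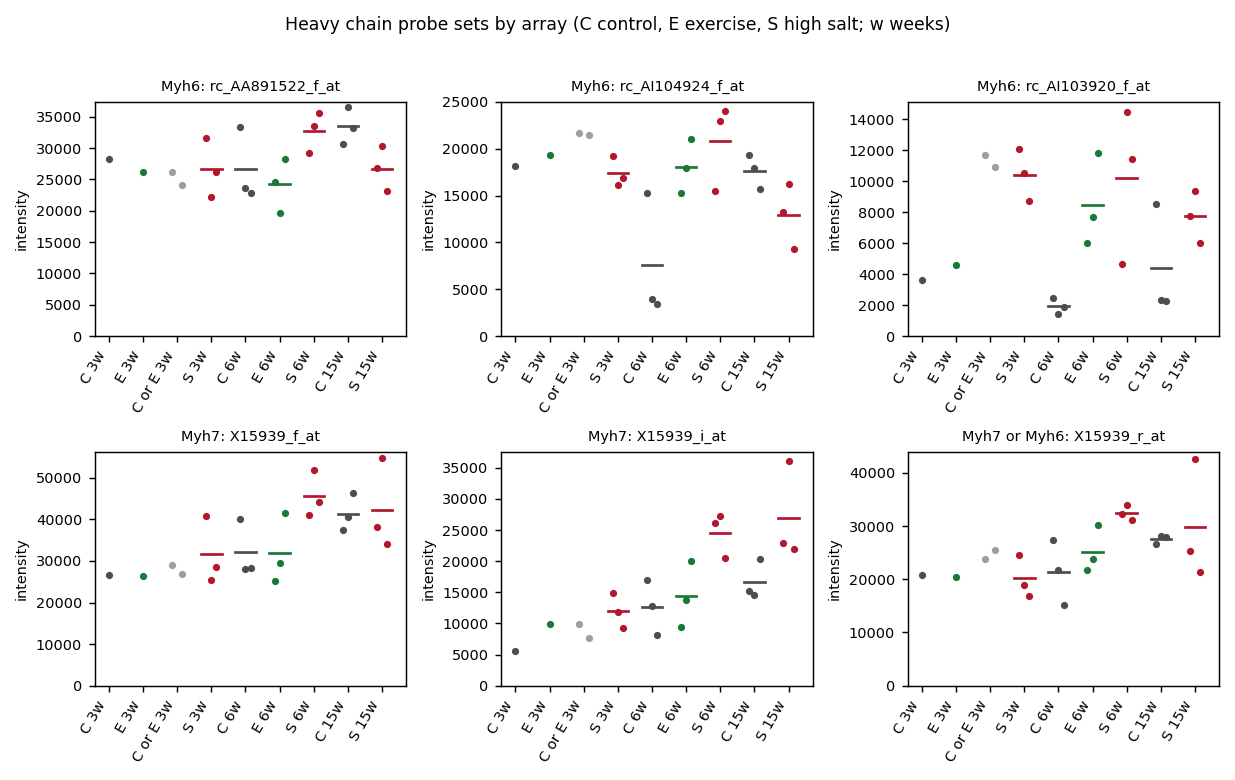
Intensity of the 6 heavy chain probe sets on each distinct array, grouped by treatment and week; points are arrays, bars are means of groups with 3 arrays, and light grey points are the 2 arrays deposited under both the control and exercise labels. X15939_i_at on high salt lies at 20438 to 27264 at 6 weeks, above the 3 controls at 8133 to 17059, while the 3 Myh6 panels differ from each other in the 6-week controls.

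The 3 Myh6 probe sets differed among themselves. The brightest, rc_AA891522_f_at, was called in no comparison. It read 33345, 23684 and 22830 in the 6-week controls, 24637, 19701 and 28298 after exercise and 29157, 33591 and 35682 on high salt, with overlap throughout except between high salt and exercise. At 15 weeks it read 30634, 36553 and 33268 in the controls and 26811, 30286 and 23144 on high salt. All 3 high salt arrays were below all 3 controls, yet the difference of -0.33 ± 0.19 was not called (adjusted p = 0.364, interval -0.72 to 0.06). At 15 weeks rc_AI103920_f_at gave the opposite sign without being called, 1.08 ± 0.43 (2.12-fold, adjusted p = 0.145, interval 0.19 to 1.98), and rc_AI104924_f_at gave -0.48 ± 0.37 (adjusted p = 0.54).

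The other Myh6 probe sets were higher in both treatments than in the 6-week controls. Probe set rc_AI103920_f_at read 2453, 1438 and 1900 in those controls, 5977, 7678 and 11785 after exercise and 4619, 14460 and 11434 on high salt. Neither treatment overlapped the controls, and the rise was 2.25 ± 0.43 for high salt (4.77-fold, adjusted p = 0.00202) and 2.09 ± 0.43 for exercise (4.25-fold, adjusted p = 0.00509). Probe set rc_AI104924_f_at read 15268, 3902 and 3441 in the controls, 15263, 17977 and 21026 after exercise and 15498, 22980 and 23985 on high salt. Control array 1 stood beside the treated arrays and the other 2 controls far below. The rise was 1.79 ± 0.37 for high salt (3.45-fold, adjusted p = 0.00326) and 1.60 ± 0.37 for exercise (3.02-fold, adjusted p = 0.0109). The exercise call was lost without control array 2 or 3 or exercise array 3, with adjusted p-values of 0.0723, 0.0808 and 0.0534.

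The GAPDH ratios of the control arrays are set beside these 2 Myh6 probe sets. The control arrays at which rc_AI104924_f_at read 3902 and 3441 had GAPDH ratios of 2.48 and 3.99, and the one at 15268 had 1.58. For rc_AI103920_f_at, the 15-week controls read 8487, 2341 and 2256 at GAPDH ratios of 1.09, 1.52 and 1.58, and the 6-week controls 2453, 1438 and 1900 at 1.58, 2.48 and 3.99. The control of 3 weeks read 3620 at a ratio of 1.10. With the GAPDH ratio in the model, the high salt differences at 6 weeks were 1.19 for rc_AI103920_f_at and 0.17 for rc_AI104924_f_at. The exercise differences were 0.95 and -0.13, and the adjusted p-values ran from 0.631 to 0.975. The ratios of the 6-week controls (1.58 to 3.99) and of the treated arrays of that week (0.99 to 1.17) did not overlap. Group and ratio therefore cannot be told apart in this fit. Set against the pooled controls of 3 and 15 weeks, rc_AI104924_f_at differed by 0.21 under high salt (adjusted p = 0.89) and 0.02 under exercise (adjusted p = 0.995). There rc_AI103920_f_at differed by 1.35 (adjusted p = 0.192) and 1.18 (adjusted p = 0.415). That pool held 1 array of 3 weeks and 3 of 15 weeks, so it was mostly of a later week than the treated arrays. High salt against exercise, on arrays with ratios of 0.99 to 1.17, gave 0.17 ± 0.43 for rc_AI103920_f_at and 0.19 ± 0.37 for rc_AI104924_f_at.

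**Figure D2:**
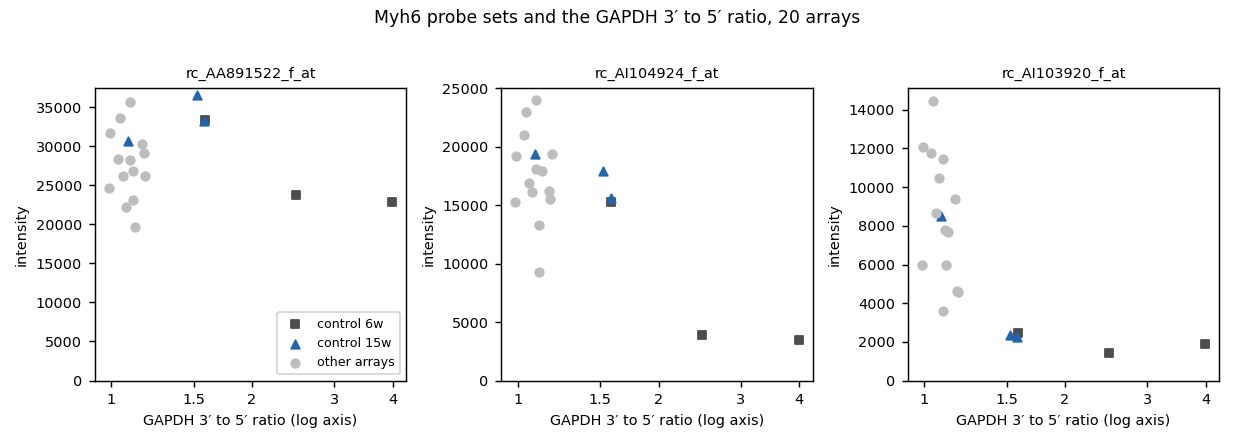
Intensity of the 3 Myh6 probe sets against the GAPDH 3' to 5' ratio (log axis) on the 20 arrays of the fit; squares are 6-week controls, triangles 15-week controls and circles all other arrays. The 2 squares at ratios of 2.48 and 3.99 sit at 3902 and 3441 for rc_AI104924_f_at but at 23684 and 22830 for rc_AA891522_f_at.

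Between 6 and 15 weeks the high salt difference of rc_AI104924_f_at changed by -2.26 ± 0.52 (adjusted p = 0.0271), the only 1 of 15 myosin probe sets called in that test, beside 1.6% of all probe sets. The same probe set was higher in the controls of 15 than of 6 weeks by 1.57 ± 0.37 (adjusted p = 0.0494), the only myosin call of that comparison, beside 0.87% of all. With the GAPDH covariate these values were -1.04 (adjusted p = 0.405) and 0.39 (adjusted p = 0.905). The 6-week controls had the highest ratios, so group and ratio cannot be told apart in these fits either. With the replicate number as a block, the difference between control weeks was 1.57 with an adjusted p of 0.0647. Each of the 2 calls was also lost in several of the fits that left out 1 array, including those without control array 2 or 3 of 6 weeks, with adjusted p-values of 0.0974 and 0.0679 for the first and 0.263 and 0.223 for the second.

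The balance of the 2 heavy chains was followed within each array as the log2 value of a Myh7 probe set minus that of Myh6 rc_AA891522_f_at. Only differences between groups are read, since probe sets differ in response. The 3 Myh6 probe sets and X15939_f_at carry the f ending, so how far each reads its own heavy chain apart from the other is not known. With X15939_f_at this was 0.29, 0.15 and 0.48 in the 15-week controls and 0.51, 0.86 and 0.56 on high salt. High salt lay above control without overlap, by 0.34, with a two-sided exact permutation p of 0.1, the smallest that 3 arrays against 3 allow. With X15939_i_at the 15-week means were -1.02 ± 0.31 and -0.02 ± 0.24 (SD), a difference of 1.002 without overlap (exact permutation p = 0.1). The GAPDH ratio was 1.09 to 1.58 in the 15-week controls and 1.11 to 1.16 on high salt, and its part in these differences was not tested.

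At 6 weeks the difference with X15939_f_at was 0.47 ± 0.16 on high salt, 0.39 ± 0.31 after exercise and 0.28 ± 0.03 in the controls (SD, n = 3 each). All 3 overlapped, with exact permutation p-values of 0.2 for high salt and 0.5 for exercise against control and 0.8 between the treatments. With X15939_i_at high salt was above control by 0.69 without overlap (exact permutation p = 0.1), and exercise by 0.31 with overlap (exact permutation p = 0.5). At 3 weeks the 3 high salt arrays were on average above the 4 non-salt arrays by 0.17 and 0.54 with the 2 probe sets, each overlapping (exact permutation p = 0.1714). Against Myh6 rc_AI104924_f_at the 2 probe sets gave 0.4 and 0.763 without overlap (exact permutation p = 0.0571 each, the smallest possible). Against Myh6 rc_AI103920_f_at they gave -0.415 and -0.052, with overlap. A total of 30 such comparisons were made over 6 pairs of probe sets. For high salt against control the direction differed between Myh6 probe sets. With rc_AI103920_f_at and X15939_f_at that difference was -1.08 at 15 weeks and -1.74 at 6 weeks. The 6-week controls had GAPDH ratios of 1.58 to 3.99, and the part of this ratio was not tested. High salt against exercise, which does not use those controls, gave 0.087 to 0.664 over the 6 pairs (exact permutation p from 0.1 to 0.8).

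**Figure D3:**
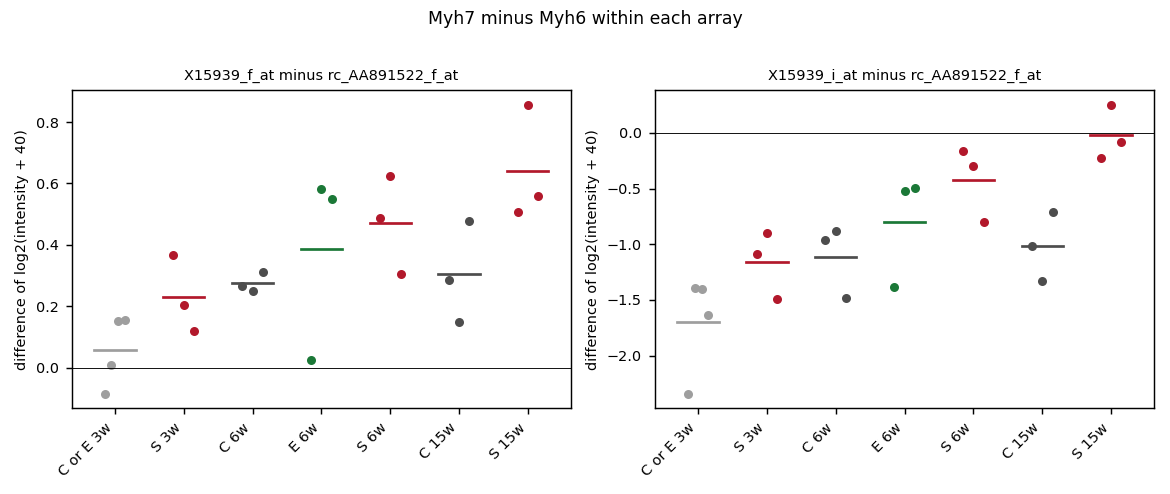
Myh7 minus Myh6 as the difference of log2(intensity + 40) within each array, for Myh7 probe sets X15939_f_at (left) and X15939_i_at (right) against Myh6 rc_AA891522_f_at; points are arrays and bars group means. At 15 weeks the 3 high salt arrays lie above the 3 controls in both panels, by 0.34 and 1.002 on average.

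Among the regulatory light chains, ventricular Myl2 did not pass the test in any comparison on any of its 3 probe sets. The brightest, X07314cds_at, read 39850, 31394 and 34224 in the 6-week controls, 29955, 31830 and 36259 after exercise and 37540, 44959 and 56634 on high salt. High salt overlapped the controls but not exercise, with differences of 0.39 ± 0.20 (adjusted p = 0.204) and 0.49 ± 0.20 (adjusted p = 0.622). At 15 weeks the controls read 38024, 57254 and 42884 and high salt 36424, 51018 and 37052. The ranges overlapped in part, and the difference was -0.15 (interval -0.56 to 0.27). M11851_at and X07314cds_g_at differed from control by 0.30 and 0.36 at 6 weeks and by -0.08 and -0.22 at 15 weeks. Exercise against control gave -0.07 to -0.14 over the 3 Myl2 probe sets, each with an interval that spanned 0.

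Myl7, the regulatory light chain of atrial muscle, was read at much lower intensity. Probe set rc_AA891242_g_at read 191, 180 and 173 on high salt at 3 weeks, 209, 229 and 222 at 6 weeks and 631, 288 and 409 at 15 weeks. All 3 arrays of 15 weeks lay above all of the other high salt arrays. The rise from 3 to 15 weeks was 1.07 ± 0.25, or 2.09-fold (adjusted p = 0.0122), and was lost without array 1 of 15 weeks (0.80, adjusted p = 0.0906) or array 3 of 3 weeks (1.04, adjusted p = 0.0535). From 6 to 15 weeks the difference was 0.83 ± 0.25 (adjusted p = 0.0792). The second Myl7 probe set, rc_AA891242_at, went from 169, 306 and 177 to 437, 313 and 334 between 3 and 15 weeks, also without overlap, by 0.67 ± 0.22 (adjusted p = 0.101).

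Against the 15-week controls the 2 Myl7 probe sets disagreed. The controls read 277, 335 and 239 on rc_AA891242_g_at and overlapped high salt, with a difference of 0.53 ± 0.25 (adjusted p = 0.243). On rc_AA891242_at the difference was -0.07 ± 0.22 (adjusted p = 0.932). At 3 weeks high salt was below the 4 non-salt arrays by -0.53 ± 0.20 and -0.52 ± 0.22 on the 2 probe sets, neither called (adjusted p = 0.446 and 0.545). In the comparison at 3 weeks 0 of 15 myosin probe sets were called by limma and 2, both Myl7, had an unadjusted p under 0.05, beside 0.153% of all probe sets called and 8.04% at that unadjusted p.

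Among the essential light chains, ventricular Myl3 (X14812_at) did not pass the test in any comparison. It read 36873, 25407 and 25536 in the 6-week controls, 22440, 24698 and 30932 after exercise and 29918, 35393 and 30354 on high salt. The 3 groups overlapped, and the highest of these arrays was a control. High salt differed from control by 0.14 ± 0.21 at 6 weeks (interval -0.30 to 0.58) and by -0.12 ± 0.21 at 15 weeks (interval -0.55 to 0.33), and exercise by -0.16 ± 0.21.

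Atrial Myl4 was dim on both probe sets, at percentiles 43.1 and 40.6 of mean intensity. X51531cds_at read 63, 21 and 74 in the 15-week controls and 208, 69 and 215 on high salt. A pair of high salt arrays stood well above the controls and array 2 among them. The difference was 1.09 ± 0.41 (interval 0.23 to 1.94) and was not called (adjusted p = 0.123). On X51531cds_g_at the difference was 0.49 ± 0.31 (adjusted p = 0.427).

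Myl1, whose products are the fast skeletal essential light chains, was measured on K02423cds_s_at. On high salt it read 67, 119 and 138 at 3 weeks, 201, 203 and 193 at 6 weeks and 249, 206 and 272 at 15 weeks. Every array of 15 weeks lay above every array of the earlier weeks. The rise from 3 to 15 weeks was 0.96 ± 0.21, or 1.94-fold (adjusted p = 0.00871). It was lost without high salt array 1 of 3 weeks, the lowest at 67 (0.74, adjusted p = 0.0777), and with only these 2 groups in the fit (adjusted p = 0.0686). The 15-week controls read 178, 183 and 204, just below high salt, and the difference of 0.30 ± 0.21 was not called (adjusted p = 0.489).

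Marker lists of other cell types were read in the same comparisons, and their part in the myosin values was not tested. For high salt at 15 against 3 weeks, 5 of 16 tested atrial probe sets were called higher, beside 5.03% of all called in either direction. The 5 were all of Nppa or Pam, and none of Nr2f1, Nr2f2, Gja5 or Kcnj3. The atrial list, with 6 of 11 genes on the array, summed to 23235 to 24671 at 3 weeks and 36556 to 48023 at 15 weeks on high salt, and to 16106 to 18544 in the 15-week controls. Of the fast skeletal list, 13 of 16 genes were on the array and 8 passed the filter; limma called 0 of their 8 probe sets, 2 had an unadjusted p under 0.05, and their median change was 0.20. The list summed to 2400 to 3033 at 3 weeks and 1441 to 2374 at 15 weeks, a sum in which Casq1 and Myh1 were the brightest. By mean intensity its genes ran from percentile 7.7 (Tnni2) to 86.6 (Casq1), with Myh1 at 74.6, Tnnt3 at 49.8, Myog at 11.9 and Myod1 at 9.3. Of the slow skeletal list, Tnni1 and Csrp3 were on the array and 0 were called, with 1 at an unadjusted p under 0.05.

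In the same comparison of 15 with 3 weeks on high salt (5.03% of all called), 9 of 16 fibroblast probe sets were called lower. The list median was -1.43, with Col3a1 at -3.66 and -3.06. Of leukocyte markers 4 of 8 probe sets were lower, all of Cd74, and of red blood cell markers 2 of 5 were higher, Slc4a1 at 1.96 and Alas2 at 1.83. For high salt against the 15-week controls (7.2% of all called), 8 of 16 fibroblast probe sets were lower and 3 of 5 red blood cell probe sets higher. Against the 6-week controls 14.4% of all tested probe sets were called under high salt and 7.83% after exercise, in either direction. Of ventricular cardiomyocyte probe sets 3 of 11 were higher under high salt, with a median of 0.45 and Pln at 1.76 and Casq2 at 1.48. After exercise 3 were higher, with a median of 0.21. Smooth muscle probe sets were lower at 6 weeks in 5 of 10 under high salt (median -0.92) and in 5 of 10 after exercise (median -0.93), among them Tagln, Acta2 and Myh11. Both comparisons at 6 weeks use the controls with GAPDH ratios of 1.58 to 3.99, and the marker lists were not refitted with that ratio. The smooth muscle list shares Myh11 and Myl9 with the list of smooth and non-muscle myosins.

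**Figure D4:**
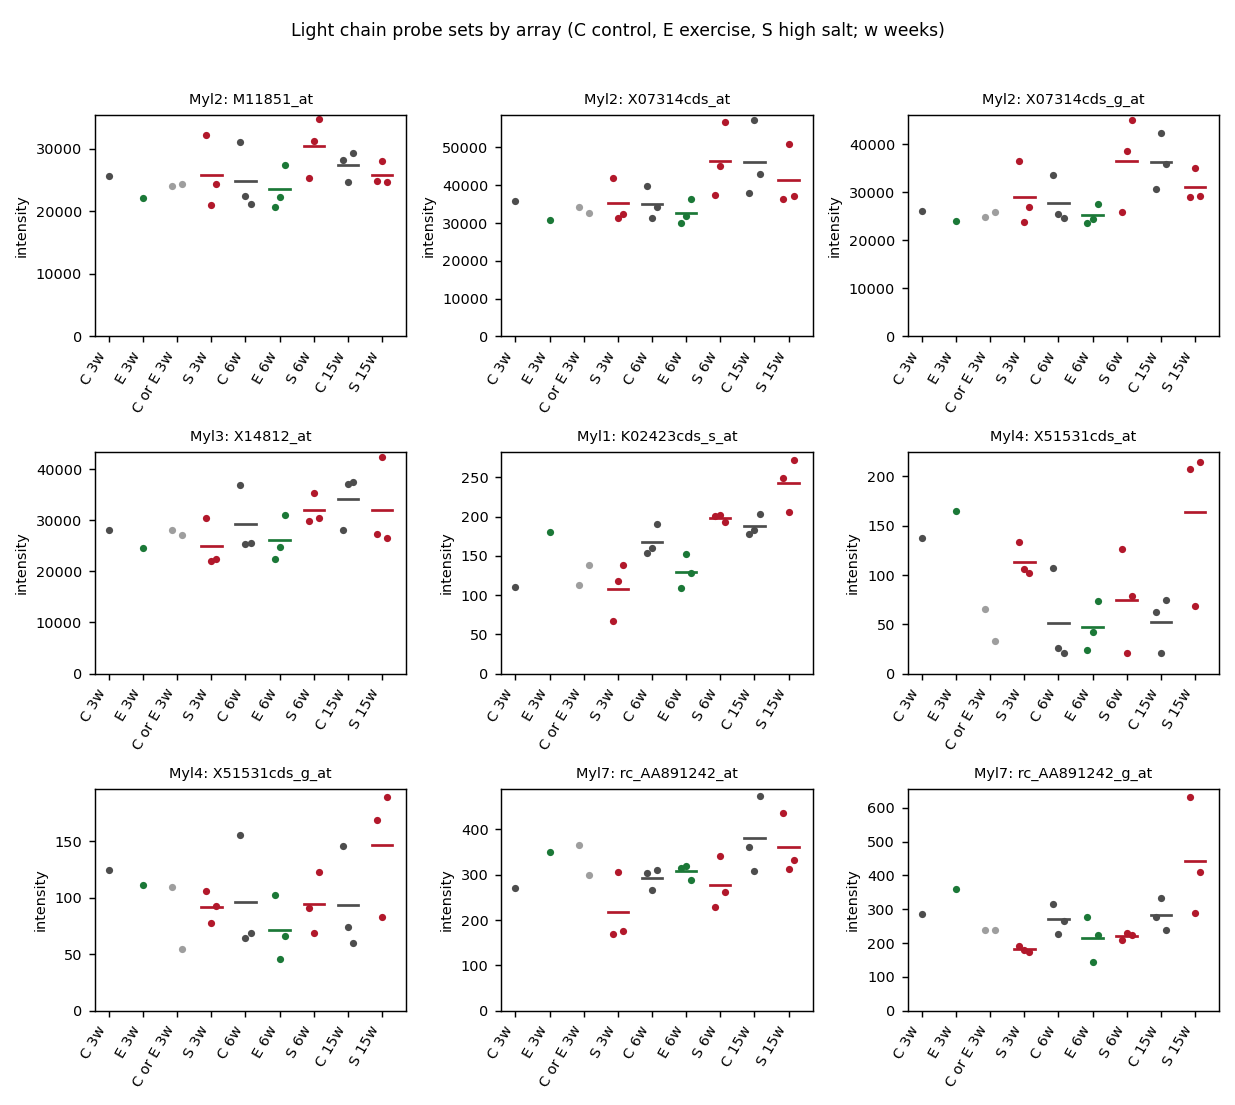
Intensity of the 9 light chain probe sets on each distinct array, grouped by treatment and week; points are arrays, bars are means of groups with 3 arrays, and light grey points are the 2 arrays deposited under both labels. On high salt Myl1 runs from 67 to 138 at 3 weeks to 206 to 272 at 15 weeks, while the Myl2 and Myl3 groups overlap at 15 weeks.

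Counted over the 15 probe sets, 3 were called higher in high salt than in control at 6 weeks (2 of Myh6 and 1 of Myh7), beside 14.4% of all tested probe sets called in either direction. Exercise against control at 6 weeks had 2 called higher, both Myh6, beside 7.83% of all. High salt against control at 15 weeks had 0 called by limma and 4 at an unadjusted p under 0.05, beside 7.2% of all called and 19.6% of all at that unadjusted p. High salt at 15 against 3 weeks had 3 called higher (Myh7, Myl1 and Myl7), beside 5.03% of all. The median over the 15 probe sets and that over all tested probe sets were 0.34 and -0.15 for high salt at 6 weeks, -0.07 and -0.12 for exercise, 0.01 and -0.04 for high salt at 15 weeks and 0.34 and 0.03 for high salt at 15 against 3 weeks. None was called for high salt at 6 against 3 weeks by limma (0.0763% of all called; 4 of the 15 and 4.62% of all at an unadjusted p under 0.05). The same held for high salt at 15 against 6 weeks (3.19% of all called; 1 of the 15 and 12.9% of all unadjusted). It held too for control at 15 against non-salt at 3 weeks (0.0153% of all called; 6 of the 15 and 7.86% of all unadjusted).

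**Figure D5:**
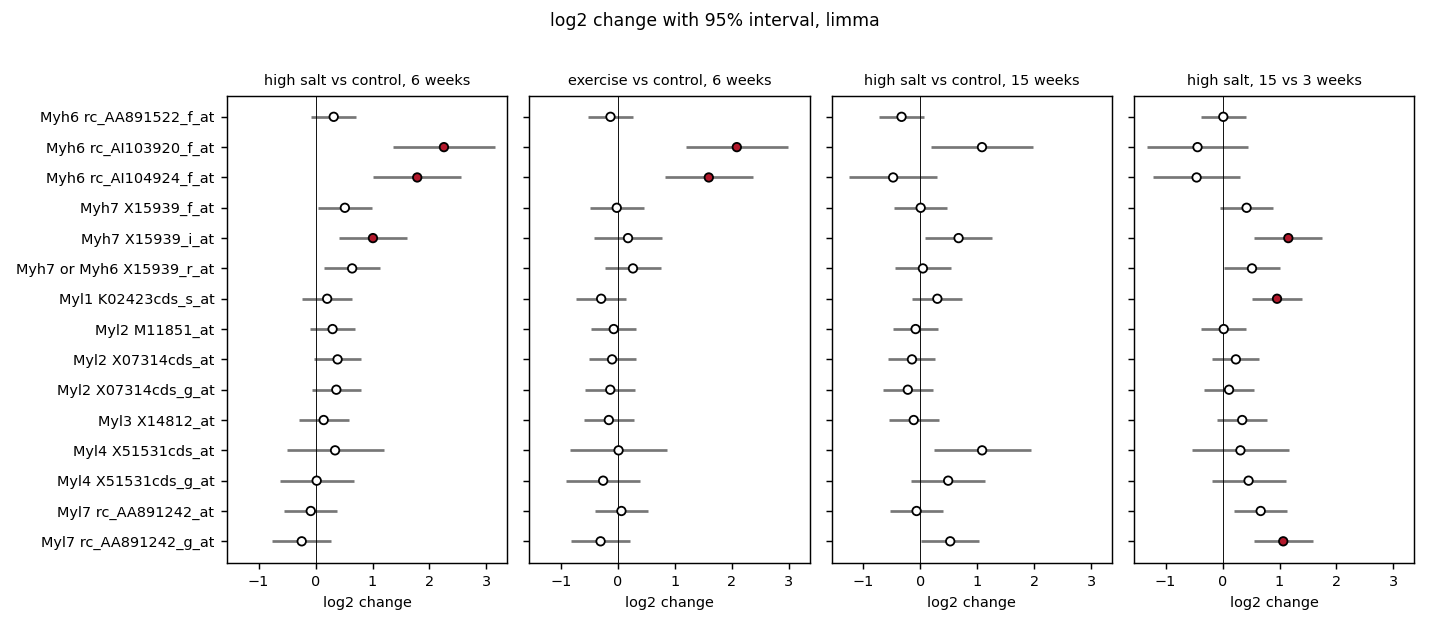
log2 change with its 95% interval from limma for the 15 probe sets in 4 comparisons; filled points are those called at an adjusted p under 0.05. The 6-week comparisons share their controls, and both have the Myh6 probe sets rc_AI103920_f_at and rc_AI104924_f_at filled; the 15-week panel of high salt against control has no filled point.

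The changes of the bright myosin probe sets were set beside those of the brightest probe sets of other genes. Of the 15, 6 were among the 20 brightest of 8740, and 8 were among the 60 brightest. For high salt against exercise at 6 weeks the median change was 0.47 over these 8 and 0.30 over the 100 brightest other probe sets, against -0.03 over all tested. In the 6-week comparison of high salt with control these medians were 0.38 and 0.25, and for control at 15 against non-salt at 3 weeks 0.40 and 0.24. For high salt at 15 against 3 weeks they were 0.29 and 0.04, and for high salt against control at 15 weeks -0.10 and -0.13. Quantile normalization, which gives every array the same distribution of values, brought the first 3 of these medians of the 8 to -0.03, 0.06 and 0.01, and that of 15 against 3 weeks to 0.07, beside -0.08 for the 100 others. Under it, Myl2 X07314cds_at turned from 0.39 to -0.10 for high salt against control at 6 weeks and Myh7 X15939_f_at went from 0.51 to 0.14, while X15939_i_at gave 0.81 and was still called (adjusted p = 0.0253).

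Across the 20 arrays of the fit, the genes most like each myosin gene by Pearson r were found among 3828 genes; the arrays share their scaling, and r is a description. Nearest to Myl2 X07314cds_at were Actc1 (0.949), Tpm1 (0.918) and Tnnt2 (0.904), which encode cardiac actin, tropomyosin and troponin T. Nearest to Myh6 rc_AA891522_f_at were Slc25a4 (0.931), Tnni3 (0.887) and Tnnt2 (0.863), and nearest to Myh7 X15939_f_at were Myl3 (0.886), Tnnt2 (0.835) and Tpm1 (0.835). Myl3 was nearest to Myh7 (0.886) and to the mitochondrial genes Atp5f1b (0.847) and COX1 (0.827). The dim light chains had lower values, up to 0.724 for Myl1 with Slc12a3, 0.707 for Myl4 with Fdx1 and 0.787 for Myl7 with Kcna4.

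Genes that act on myosin were counted on lists of their own. Of the light chain kinases and the phosphatase, 11 probe sets of 6 genes were tested. At 15 weeks 3 were called higher in high salt, beside 7.2% of all called in either direction. These were 2 probe sets of Rock2, a kinase that inhibits the myosin phosphatase (1.78 ± 0.33, adjusted p = 0.00179, and 0.93 ± 0.23, adjusted p = 0.0172), and Ppp1cb, the catalytic subunit of that phosphatase (1.25 ± 0.25, adjusted p = 0.00384). The same 3 were called higher at 6 weeks, at 1.28, 0.75 and 1.04, beside 14.4% of all. After exercise 1 Rock2 probe set was called higher, at 1.37, beside 7.83% of all. The list median at 15 weeks was 0.38, against -0.04 over all tested probe sets.

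Of folding and turnover genes, 7 probe sets of 3 genes were tested. Over all tested probe sets, 7.2% were called for high salt against control at 15 weeks and 14.4% at 6 weeks. The share was 7.83% for exercise and 5.03% for high salt at 15 against 3 weeks. Trim63, a ubiquitin ligase that marks myosin for breakdown, was lower in high salt at 15 weeks on 2 probe sets (-0.89 ± 0.21, adjusted p = 0.011, and -1.06 ± 0.32, adjusted p = 0.0486) and at 6 weeks on 1 (-1.02), as it was after exercise (-0.99). The chaperone gene Hsp90ab1 was higher at 6 weeks on 2 probe sets, by 1.84 and 0.95 under high salt and by 1.63 and 0.84 after exercise. Trim54, a relative of Trim63, was higher in high salt at 15 than at 3 weeks by 1.19 ± 0.25 (adjusted p = 0.00681).

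Of transcriptional regulators of the myosin genes, 27 probe sets of 19 genes were tested. At 15 weeks 1 of 27 was called in high salt, beside 7.2% of all: Gata6, at 1.14 ± 0.24 (adjusted p = 0.00645). At 6 weeks 4 of 27 were higher under high salt, beside 14.4% of all called in either direction: the cardiac transcription factor genes Hand2 at 2.48 and Gata4 on 2 probe sets at 0.84 and 0.67, and the retinoid X receptor gene Rxrg at 1.58. After exercise 2 of 27 were higher, beside 7.83% of all: Hand2 at 2.26 and Rxrg at 1.93. The comparisons at 6 weeks share the controls with high GAPDH ratios, and these lists were not refitted with the covariate.

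Of smooth and non-muscle myosins, 9 probe sets of 5 genes were tested. In high salt 3 were lower than in control at 6 weeks, beside 14.4% of all called in either direction. They were Myh11 at -1.28, Myl9 at -0.93 and Myl6 at -0.76. Myh11, the smooth muscle heavy chain, was also lower after exercise (-0.95 ± 0.25, adjusted p = 0.0231), beside 7.83% of all called. At 15 weeks none of the 9 was called by limma, with 1 at an unadjusted p under 0.05. Other sarcomeric myosins (7 probe sets) and thick filament and M band genes (4 probe sets) had none called in any of these comparisons. For high salt against control at 6 weeks, 1 of each list had an unadjusted p under 0.05. So did 2 other sarcomeric probe sets for exercise at 6 weeks and 1 for control at 15 against non-salt at 3 weeks. On the thick filament list 1 did for high salt at 15 against 3 weeks and 1 at 15 against 6 weeks.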

How the data were processed

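Left ventricular RNA was hybridised to an Affymetrix rat array. The authors deposited 1 linear intensity per probe set and column, for 8799 probe sets; the summary method and software used for this table were not given in the sources used here. Trimmed means of 499.979 to 499.985 show that the deposited intensity values were already scaled, and they were used as they stood. Control probe sets (59) were left out, values were transformed as log2(intensity + 40), which understates changes of dim genes, and 6555 probe sets with a mean at or above the 25th percentile (41.9) were tested. A model with 1 mean per group was fitted with limma 3.58.1 in R 4.3.3 (empirical Bayes with an intensity trend) to 20 arrays with 12 residual degrees of freedom, or to 22 where the 3-week non-salt arrays were combined. Adjusted p-values are Benjamini-Hochberg over all tested probe sets, called under 0.05. The single control and exercise arrays of 3 weeks were assumed to vary as the other groups do. Intervals are 95% intervals of the fit. The fit was tested on simulated data.

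Symbols came from the platform annotation: 7018 probe sets had 1 symbol, 308 several and 1473 none. Probe set coordinates were not used. Every probe set of the 7 genes is named; from the other lists, up to 4 called probe sets with the smallest p per comparison were named. The members, lists and tests were chosen with earlier results of these data known, and the comparisons of 15 with 3 weeks were added after the values were seen. Alternatives covered pseudocount, filter, quantile normalization, replicate block, GAPDH ratio, array weights, intensity trend, the groups fitted, the controls, the arrays under 2 labels and each array left out. Deviations of same-numbered arrays from their group means correlated at -0.228 to 0.241. With at most 3 arrays per group, this cannot settle whether the numbers pair them. The main fit did not pair them, and the replicate block was run as an alternative. Single values were compared with exact permutation tests in SciPy 1.17.1, two-sided.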

Additional observations from a re-analysis of the deposited data

Results flagged for a closer look

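The change from 6 to 15 weeks in the difference between high salt and control of the Myh6 probe set rc_AI104924_f_at was -2.262, and it stands here because the interaction term of the fit was called (adjusted p = 0.0271). High salt exceeded control by 1.79 at 6 weeks and differed by -0.48 at 15 weeks. The 6-week controls in this test had GAPDH 3' to 5' ratios of 1.58, 2.48 and 3.99, and with that ratio in the model the change was -1.04 (adjusted p = 0.405). Group and ratio cannot be told apart in that model. In the combined non-salt group of 3 weeks, the only one with 4 arrays, no array met the criterion for standing apart on any myosin probe set.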

How the results depend on the processing

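Of 10 called results for single probe sets, 0 were called under every alternative run and 1 reversed; of 155 not called, 14 were called under some alternative. The reversed value was exercise against control at 6 weeks on rc_AI104924_f_at, at -0.125 once the GAPDH ratio was a covariate. That ratio was 0.99 to 1.12 after exercise and 1.58 to 3.99 in the controls, so group and ratio cannot be told apart there.

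The number of the 15 myosin probe sets called for high salt against control at 6 weeks, 3 in the main setting, was 0 with the GAPDH covariate, 0 against the controls of 3 and 15 weeks, 1 with only the groups compared, 6 with array weights and 2 to 4 without each array in turn. For exercise against control it was 0, 0 and 1 under the first 3 of these and 1 to 2 without each array. For high salt against control at 15 weeks it was 3 with array weights and 0 to 1 without each array, and for high salt at 15 against 6 weeks 2 with array weights, 1 with all 24 columns and 0 to 1 without each array. For control at 15 against 6 weeks it was 0 with a pseudocount of 16, no filter, the replicate block, the GAPDH covariate, no intensity trend or only the groups compared, 2 with array weights and 0 to 1 without each array. For high salt at 15 against 3 weeks it was 5 with array weights and 1 to 3 without each array. For the change in the high salt difference it was 0 with no filter, the GAPDH covariate or only the groups compared, 4 with array weights and 0 to 1 without each array. The replicate block changed no other count. The causes were not tested.

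Myh7 minus Myh6 depended on the probe sets. In the order X15939_f_at with rc_AI103920_f_at, X15939_f_at with rc_AI104924_f_at, and X15939_i_at with rc_AA891522_f_at, rc_AI103920_f_at and rc_AI104924_f_at, high salt minus control at 6 weeks was -1.739, -1.27, 0.689, -1.247 and -0.778. High salt minus exercise was 0.37, 0.347, 0.381, 0.664 and 0.641. Exercise minus control was -2.109, -1.618, 0.308, -1.911 and -1.419, and high salt minus control at 15 weeks was -1.077, 0.484, 1.002, -0.411 and 1.15. Without each array in turn the values with the pair first named in the report were 0.228 to 0.422 at 15 weeks, 0.121 to 0.28 for high salt and 0.011 to 0.29 for exercise at 6 weeks, and -0.093 to 0.185 between treatments. Quantile normalization moved the median of all probe sets for high salt against control at 6 weeks from -0.15 to -0.046. Dim signal limits what can be read for Myl4, where some arrays lay under the filter value of 41.9.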
